A study of Mus musculus with 12 samples.

Results

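Transcript levels of the insulin-like growth factor (IGF) system were described in primary motoneuron cultures of mice through 10 genes chosen by name. They were the ligands Igf1 and Igf2, the receptors Igf1r, Igf2r and Insr, the adaptor Irs1, and the binding proteins Igfbp2, Igfbp3, Igfbp4 and Igfbp5. Each name matched 1 gene in the expression tables, which hold 39174 gene identifiers in all. Gene expression was measured by mRNA sequencing of total RNA from primary motoneuron cultures of FVB mice, with 3 libraries in each of 4 groups. The groups were Smn-/-;SMN2 cultures treated with 0.5 µM R-Roscovitine, untreated Smn-/-;SMN2 cultures, Smn+/+;SMN2 cultures treated with 0.5 µM R-Roscovitine, and untreated Smn+/+;SMN2 cultures. Smn-/-;SMN2 cultures are called SMA below, for spinal muscular atrophy, and Smn+/+;SMN2 cultures are called control. All groups carried SMN2, the human paralogue that yields little full-length survival motor neuron protein, so the control cultures are not plain wild type. R-Roscovitine blocks cyclin-dependent kinases and also acts on presynaptic calcium channels. The age of the animals, and whether libraries of 1 group came from separate animals or cultures, is not given in the sources used here, so the p-values measure the spread between these libraries, which may be technical.

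IGF1 and IGF2 are secreted peptides that bind the IGF1 receptor, a tyrosine kinase closely related to the insulin receptor. The receptor phosphorylates insulin receptor substrates such as IRS1, which recruit PI3 kinase and so activate AKT and mTOR. The IGF2 receptor has no kinase and carries IGF2 to lysosomes, and IGF binding proteins hold the ligands in the medium or the matrix, where proteases can free them. IGF1 is a survival factor for motoneurons in culture.

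The deposited values are FPKM, that is, fragments scaled by transcript length and library depth, so levels can be set side by side between genes. Each library had 19.5 to 28.7 M reads, as read from the steps of low FPKM, with a mean of 22.2 ± 2.05 M reads in SMA and 26.5 ± 1.99 M reads in control libraries (SD, n = 6 each). Smn1, the deleted gene, was at 5.04 to 7.35 FPKM in treated and 6.11 to 8.58 FPKM in untreated SMA libraries, against 38.2 to 45.1 FPKM in treated and 30.9 to 51.2 FPKM in untreated control libraries, which sets the 2 genotypes apart as labelled in all 12 libraries; the treatment labels have no such check here. Which part of Smn1 is deleted is not given in the sources used here, so its remaining FPKM in SMA libraries are given as listed. Of the defining motoneuron markers, Isl1, Isl2, Mnx1, Lhx3, Chat and Slc5a7 did not reach 1 FPKM in any library. The other 5 markers of the list found in the files reached it: Chodl was at 3.53 to 18.1 FPKM, Nefh at 2.24 to 8.73 FPKM, Ret at 1.38 to 3.35 FPKM, Ngfr at 1.36 to 5.08 FPKM and Prph at 0.320 to 1.71 FPKM. Of these 5, Chodl alone passed the test described below, with a difference of -1.08 ± 0.24 averaged over treatments (limma adjusted p = 0.0337), lower in SMA. It did not pass within either treatment, or with the mean of each pair, as defined below, as 1 sample. Among markers of pericytes and smooth muscle, Acta2 averaged 2177 FPKM, Tagln 794 FPKM and Cnn1 27.5 FPKM over the 12 libraries. Rgs5 and Cspg4 averaged 0.477 and 0.874 FPKM, and Myh11, Kcnj8 and Abcc9 did not reach 1 FPKM in any library. Vim, listed here with neural progenitors, averaged 2820 FPKM. The cell make-up of the cultures was not tested. Treated and untreated libraries of the same genotype and number deviated together from their group means, with correlations of 0.222 to 0.574 in all 6 pairs, and are called a pair below. Fold changes are differences of log2(scaled FPKM + 1), a scale that understates the change of low genes, and were tested with limma over 15114 genes at a Benjamini-Hochberg adjusted p of 0.05, with intervals at 95%. All 10 IGF genes passed the filter of at least 1 FPKM in at least 3 of the 12 libraries.

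The 10 genes covered a wide range of levels, and the binding proteins were the most abundant. Igfbp2 averaged 358 FPKM over the 12 libraries and ranked 225 of the 15114 tested genes. Igfbp3 and Igfbp5 followed at 139 and 125 FPKM. Igfbp4, the fourth binding protein of the group, was the lowest of all 10 genes at 4.77 FPKM. Between these lay Igf1 at 36.7 FPKM, Irs1 at 15.0 FPKM, Igf1r at 12.2 FPKM, Igf2r at 8.54 FPKM, Insr at 5.79 FPKM and Igf2 at 5.25 FPKM. Igf2 varied most between libraries, by a factor of 30.7 between the highest and the lowest, whereas the other 9 genes varied by factors of 1.41 for Insr to 3.33 for Igfbp5. Cufflinks' own interval, which covers counting and assignment error only, extended 3.41% to 3.85% of the value to each side for Igfbp2 but 6.47% to 55.0% for Igf2.

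**Figure D1:**
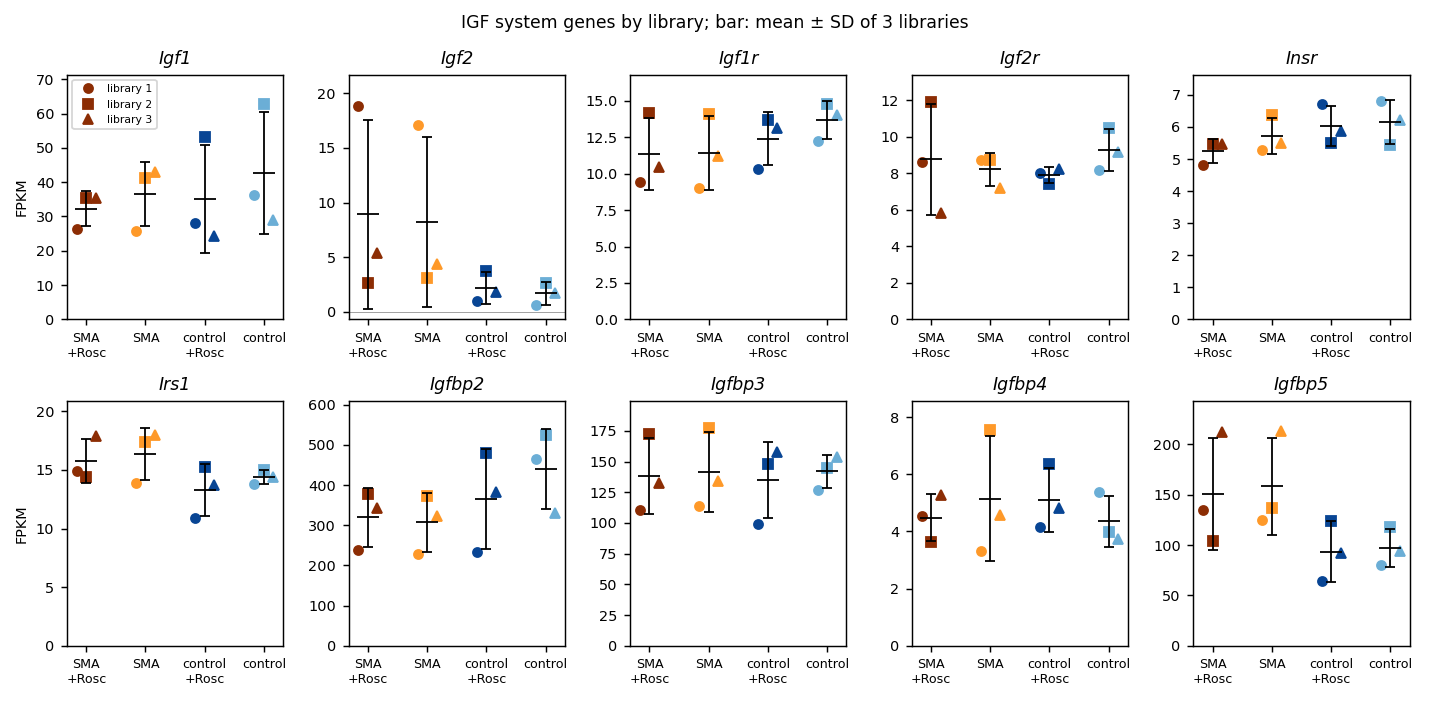
FPKM of the 10 IGF genes in each library (points), with the mean and SD of each group of 3 libraries, for treated and untreated SMA and then treated and untreated control libraries. Both SMA libraries numbered 1 stand far above all others for Igf2, at 18.8 FPKM with and 17.1 FPKM without R-Roscovitine.

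No IGF gene passed the threshold for genotype, within either treatment or averaged over both. Igf2 and Igfbp5 had the lowest unadjusted p in each of these comparisons, with higher values in SMA libraries. In untreated libraries 0.00662% of the tested genes passed, which was the 1 gene Smn1, and with R-Roscovitine also 0.00662%. Averaged over both treatments, 4.42% passed, or 668 genes (2.79% of the tested genes were higher in SMA), and 1 gene with the mean of each pair as 1 sample. At an unadjusted limma p under 0.05, 2 of the 10 IGF genes stood out in each comparison, against 14% of all tested genes without treatment, 12.9% with it and 23% for the average. The median difference over the 10 genes was 0.01 for the averaged genotype comparison, against -0.01 over all tested genes.

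**Figure D2:**
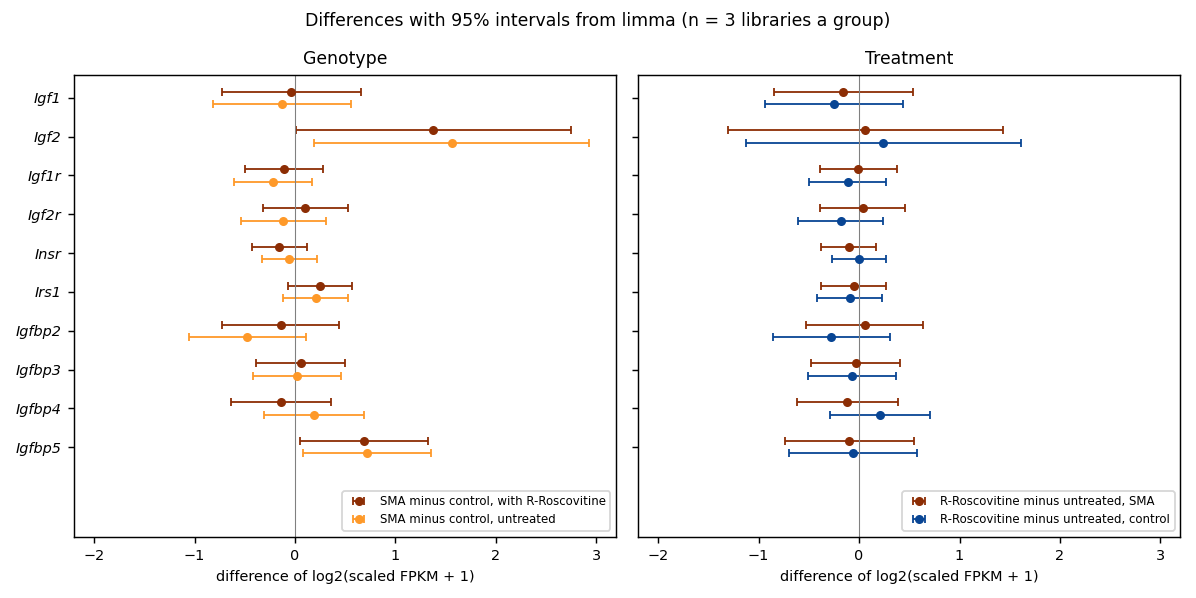
Differences of log2(scaled FPKM + 1) with 95% intervals from limma for the 10 IGF genes, SMA minus control on the left and R-Roscovitine minus untreated on the right. For genotype, only the intervals of Igf2 and Igfbp5 lie wholly above 0, before adjustment for the number of genes tested. For treatment every interval includes 0, in a fit that does not use the pairs of treated and untreated libraries.

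Among the ligands, Igf2 had higher means in SMA than in control libraries, by an amount that rested mainly on 1 pair. Igf2 is an imprinted gene on the minus strand of chromosome 7 (chr7:142650766-142666816, GRCm38) that encodes a growth factor of embryonic tissues. Untreated, it was at 17.1, 3.09 and 4.39 FPKM in SMA libraries 1, 2 and 3, and at 0.613, 2.69 and 1.76 FPKM in control libraries 1, 2 and 3. The lowest SMA library thus lay just above the highest control library, and SMA library 1 far above all. With R-Roscovitine, Igf2 was at 18.8, 2.60 and 5.34 FPKM in SMA libraries, and at 0.964, 3.77 and 1.82 FPKM in control libraries. There the groups overlapped, since SMA library 2 lay below control library 2. The difference was 1.56 ± 0.63 (SE; interval 0.19 to 2.93; limma adjusted p = 0.309) without treatment and 1.38 ± 0.63 (interval 0.01 to 2.75; limma adjusted p = 0.388) with it.

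Averaged over treatments, the Igf2 difference was 1.47 ± 0.45 with a limma adjusted p of 0.0782, and 4 of the 6 SMA libraries lay above all 6 control libraries. These 4 were SMA libraries 1 and 3 with and without treatment, so they are pairs and not 4 independent samples. With the mean of each pair as 1 sample, the difference was 1.47 ± 0.55 (limma adjusted p = 0.277). Leaving out SMA library 1 in both treatments brought the Igf2 difference over single libraries to 0.79 ± 0.30 (limma adjusted p = 0.208). Over all tested genes, 1 passed in that fit. Leaving out SMA library 2 in both treatments brought the Igf2 difference to 1.96 with a limma adjusted p of 0.0187. In that fit 1228 genes passed, against 668 with all libraries, so passing there was not particular to Igf2. SMA library 1 also stood apart in several markers of fibroblasts and meninges, which are tissues known to express Igf2. Lum, which encodes a matrix proteoglycan, was at 3.46 FPKM in the treated and 2.01 FPKM in the untreated SMA library 1, and at most at 0.173 FPKM elsewhere. Col3a1, a fibrillar collagen gene, was at 2.67 and 2.93 FPKM in these 2 libraries and at most at 0.489 FPKM in the others. Postn and Dcn were likewise highest in them, at 5.80 and 14.9 FPKM and at 5.52 and 5.27 FPKM. Other markers of the list went otherwise. Mfap5 was lowest in these 2 libraries, at 3.68 and 3.48 FPKM. Col1a2 and Twist1, like Col1a1, were highest in control library 2. Over the whole list of 12 such markers, of which 7 were tested, the summed level was 30.5 to 50.7 FPKM in treated and 31.9 to 54.7 FPKM in untreated SMA libraries, against 30.9 to 113 FPKM in treated and 28.2 to 116 FPKM in untreated control libraries. The highest sums came from control library 2, where Col1a1 was at 63.2 FPKM with and 63.1 FPKM without treatment. Pdgfra, Pdgfrb and Foxc1 were below 1 FPKM in every library. The part of such cells in the Igf2 levels was not tested, and in bulk RNA more cells of a type and more RNA per cell cannot be told apart.

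**Figure D3:**
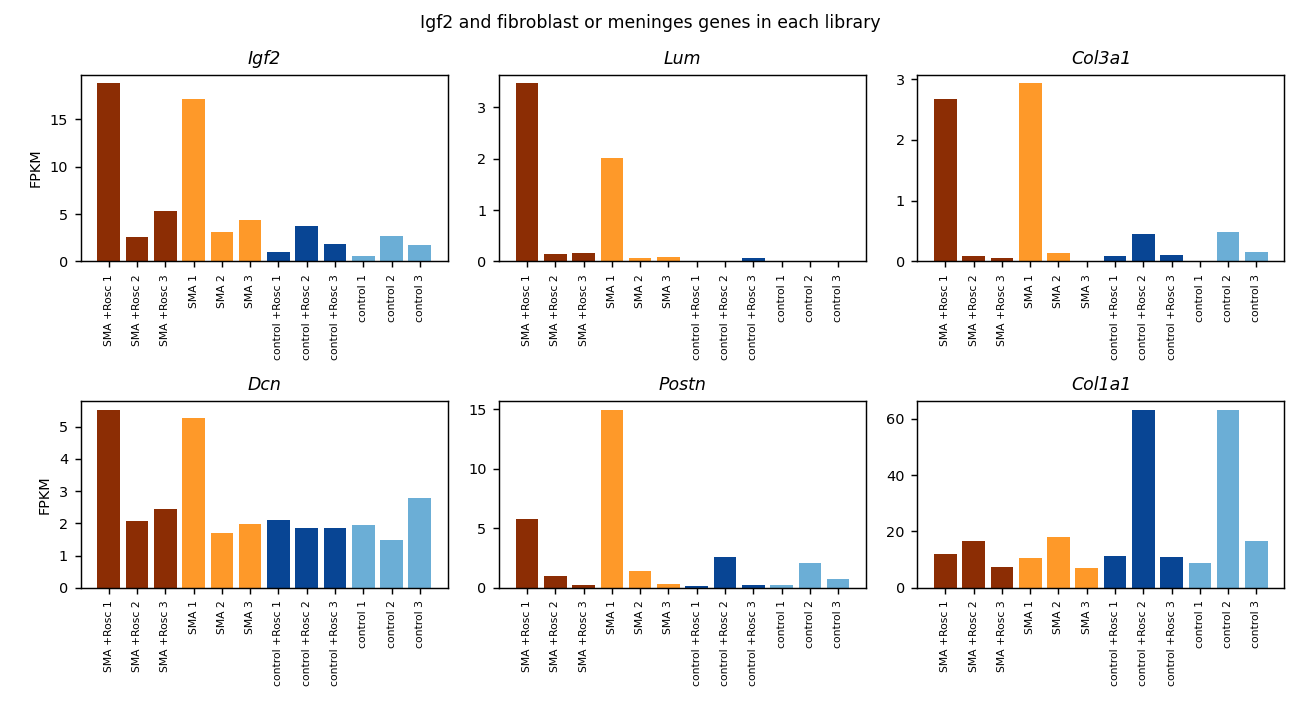
FPKM of Igf2 and of 5 markers of fibroblasts and meninges, 1 bar per library, with treated and untreated SMA libraries left of treated and untreated control libraries. Igf2, Lum, Col3a1, Dcn and Postn are highest in both libraries of SMA number 1, while Col1a1 is highest in both libraries of control number 2.

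The genes whose levels ran most like Igf2 over the 12 libraries were BC064078 (Pearson r = 0.967), Golph3l (r = 0.960) and Commd3 (r = 0.951), on the log2 scale and as a description only. H19, the imprinted noncoding RNA 72622 bases from Igf2 on the same strand, averaged 38.7 ± 23.0 FPKM in treated and 43.6 ± 15.0 FPKM in untreated SMA libraries, against 16.4 ± 9.40 FPKM in treated and 16.5 ± 3.83 FPKM in untreated control libraries (mean ± SD, n = 3 each). Its averaged genotype difference was 1.30 ± 0.35 with a limma adjusted p of 0.0521. This lay at the threshold: H19 passed in 4 of 9 other settings with all libraries and in 3 of 18 fits without 1 library or pair, and its limma adjusted p was 0.21 with the mean of each pair as 1 sample. H19 did not single out SMA library 1 as Igf2 did: its highest values, 63.1 and 60.4 FPKM, were in SMA library 3 with and without treatment, and SMA library 1 was at 35.5 and 38.8 FPKM. Ins2, the insulin gene on the other side of Igf2, was listed at 0 in 11 of 12 libraries, and Ins1 in all 12.

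Igf1, the other ligand, lies on chromosome 10 (chr10:87858265-87937042, plus strand). It was at 26.3, 35.3 and 35.3 FPKM in treated SMA libraries 1, 2 and 3, and at 28.2, 53.2 and 24.2 FPKM in treated control libraries. Untreated, it was at 25.9, 41.1 and 42.9 FPKM in SMA libraries and at 36.4, 62.7 and 28.9 FPKM in control libraries. The groups overlapped, and control library 2 was the highest with and without treatment. The averaged genotype difference was -0.08 ± 0.23 (interval -0.57 to 0.40; limma adjusted p = 0.861). Fmod, which encodes the matrix protein fibromodulin, was among the 3 genes most like Igf1 (r = 0.899), beside Pkm (r = 0.905), a glycolytic enzyme gene, and RP23-100J17.7 (r = 0.902). Fmod was at 12.7 and 13.9 FPKM in control library 2 with and without treatment and at most at 4.93 FPKM in the others.

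The receptors differed little between the groups. Igf1r, on chromosome 7 (chr7:67952859-68226780), was at 9.45, 14.2 and 10.5 FPKM in treated and 9.00, 14.1 and 11.2 FPKM in untreated SMA libraries. In control libraries it was at 10.3, 13.7 and 13.2 FPKM with and 12.3, 14.8 and 14.0 FPKM without treatment. In both genotypes library 1 was the lowest and library 2 the highest, and the ranges overlapped. The averaged genotype difference was -0.16 ± 0.13 (interval -0.44 to 0.11; limma adjusted p = 0.469). Its levels ran most like Itprip (r = 0.980), Kctd10 (r = 0.964) and Inhba (r = 0.962), the last of which encodes an activin subunit.

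Insr, the insulin receptor gene on chromosome 8 (chr8:3150922-3279617), was the steadiest of the 10. With R-Roscovitine it was at 4.82, 5.46 and 5.46 FPKM in SMA libraries and at 6.72, 5.50 and 5.86 FPKM in control libraries. The 2 groups did not overlap, but 2 SMA libraries at 5.46 FPKM and 1 control library at 5.50 FPKM lay closer than Cufflinks' interval for Insr, whose smallest half-width was 6.41% of the value. Insr was the 1 IGF gene wholly lower in treated SMA than in treated control libraries, as were 8.84% of all tested genes. Untreated, it averaged 5.72 ± 0.569 FPKM in SMA and 6.16 ± 0.679 FPKM in control libraries (mean ± SD, n = 3 each), and the groups overlapped. The averaged difference was -0.10 ± 0.09 (interval -0.30 to 0.09; limma adjusted p = 0.519). The ratio of Igf1r to Insr lay between 1.54 and 2.71 in all 12 libraries, and in each the IGF1 receptor gene was the more abundant one.

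Igf2r, on chromosome 17 (chr17:12682406-12769664, minus strand), averaged 8.76 ± 3.04 FPKM in treated and 8.23 ± 0.900 FPKM in untreated SMA libraries, and 7.90 ± 0.432 FPKM in treated and 9.28 ± 1.16 FPKM in untreated control libraries (mean ± SD, n = 3 each). Its highest and lowest libraries, 11.9 and 5.80 FPKM, were both treated SMA libraries. The averaged genotype difference was -0.01 ± 0.14 (interval -0.31 to 0.29; limma adjusted p = 0.98). The noncoding RNA Airn overlaps Igf2r on the other strand and was at 3.49 to 7.62 FPKM. The strand setting of the counting is not given in the sources used here, so reads of Igf2r and Airn cannot be told apart.

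Irs1, the adaptor that couples both receptors to PI3 kinase, was at 14.9, 14.4 and 17.9 FPKM in treated and 13.8, 17.4 and 18.0 FPKM in untreated SMA libraries 1, 2 and 3. In control libraries it was at 10.9, 15.3 and 13.7 FPKM with and 13.8, 15.0 and 14.4 FPKM without treatment. The groups overlapped in both treatments. The averaged genotype difference was 0.23 ± 0.11 (interval -6.26e-05 to 0.46; limma adjusted p = 0.217). Irs1 and Igfbp5 had the highest correlation of any 2 of the 10 genes over the 12 libraries (r = 0.937), and both were lowest in treated control library 1 and highest in untreated SMA library 3. The 12 points include 6 pairs that share a genotype and number, so they are not 12 independent samples. The next highest were Igf1r with Igfbp3 (r = 0.833) and Igf1r with Igfbp2 (r = 0.809).

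**Figure D4:**
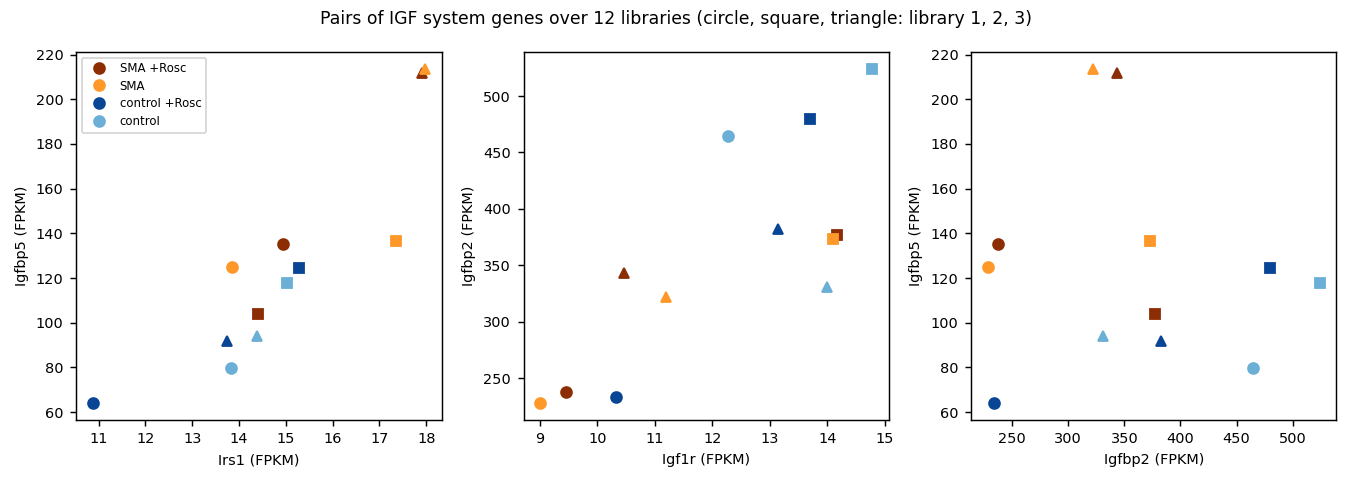
FPKM of Igfbp5 against Irs1, of Igfbp2 against Igf1r and of Igfbp5 against Igfbp2, 1 point per library, coloured by group and shaped by library number. Igfbp5 runs along with Irs1 (r = 0.937 on the log2 scale), with both SMA libraries numbered 3 at the top, but not with Igfbp2 (r = 0.0241).

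Igfbp5 was the binding protein gene with the largest genotype difference. It encodes a secreted protein that binds IGFs and extracellular matrix. Untreated, it was at 125, 136 and 214 FPKM in SMA libraries 1, 2 and 3, and at 79.8, 118 and 94.3 FPKM in control libraries. All 3 SMA libraries lay above all 3 control libraries. With R-Roscovitine it was at 135, 104 and 212 FPKM in SMA libraries and at 64.2, 124 and 91.9 FPKM in control libraries, where SMA library 2 lay below control library 2. Igf2 and Igfbp5 were the 2 of 10 IGF genes wholly higher in untreated SMA libraries, as were 7.83% of all tested genes. For Igf2, Cufflinks' interval was 2.24 to 3.94 FPKM in untreated SMA library 2 and 2.25 to 3.13 FPKM in untreated control library 2. For Igfbp5 it was 121 to 130 FPKM in untreated SMA library 1 and 113 to 122 FPKM in untreated control library 2. The intervals of the nearest libraries thus overlapped for both genes. For each the exact permutation test gave p = 0.1 (two-sided), the smallest that 3 against 3 libraries allow. Full separation of the groups fixes this p, so the test adds nothing to it. Insr with R-Roscovitine also had p = 0.1 in this permutation test. No IGF gene was wholly higher with R-Roscovitine, against 8.9% of all tested genes, or in both treatments, against 2.46%.

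The Igfbp5 difference was 0.72 ± 0.30 (interval 0.08 to 1.36; limma adjusted p = 0.313) without treatment, 0.68 ± 0.30 (interval 0.05 to 1.32; limma adjusted p = 0.37) with it, and 0.70 ± 0.21 (interval 0.25 to 1.15; limma adjusted p = 0.0736) on average. With the mean of each pair as 1 sample, the averaged difference was 0.70 ± 0.25 (limma adjusted p = 0.263). Over single libraries, leaving out SMA library 2 in both treatments brought it to 0.87 with a limma adjusted p of 0.0347. Leaving out SMA library 3 brought it to 0.45 with a limma adjusted p of 0.364. Over all tested genes, 1228 passed without SMA library 2 and 1 without SMA library 3, against 668 with all libraries. Of 9 tested markers of astroglia, 8 had a higher and 1, Slc1a2, a lower value in SMA on average. Gfap, Slc1a3, Mlc1 and Kcnj10 passed as higher in the averaged comparison, but no marker passed within either treatment or with the mean of each pair as 1 sample. The summed level of all 10 astroglial markers was 155 to 263 FPKM in treated and 187 to 258 FPKM in untreated SMA libraries, against 108 to 143 FPKM in treated and 124 to 155 FPKM in untreated control libraries. S100b was below 1 FPKM in every library, and Gfap reached at most 3.25 FPKM. The 8 markers of the oligodendrocyte lineage, of which 5 were tested and Pdgfra was below 1 FPKM everywhere, summed to 17.7 to 81.7 FPKM in treated and 22.9 to 73.7 FPKM in untreated SMA libraries, against 11.2 to 14.1 FPKM in treated and 12.6 to 18.3 FPKM in untreated control libraries. Of the 5 tested, 3 had a higher and 2 a lower value in SMA on average, and 2 passed as higher. Olig1 alone was at 59.8 FPKM in the library with the highest sum, treated SMA library 1. Mbp was at 1.98 to 2.44 FPKM in treated SMA and 2.94 to 4.84 FPKM in treated control libraries, and 8.84% of all tested genes were likewise wholly lower there. Untreated, the groups overlapped, with Mbp at 1.89 to 2.60 FPKM in SMA and 2.57 to 5.31 FPKM in control libraries. Of 10 neural progenitor markers, 8 had a higher and 2 a lower value in SMA on average, with a median difference of 0.68, and 5 passed as higher. They summed to 3058 to 3912 FPKM in treated and 3021 to 3954 FPKM in untreated SMA libraries, against 2192 to 3486 FPKM in treated and 3359 to 3645 FPKM in untreated control libraries. Vim made up most of this sum, at 1852 to 3278 FPKM over all libraries. No oligodendrocyte or progenitor marker passed within either treatment or with the mean of each pair as 1 sample. All 10 pan-neuronal markers had a lower value in SMA on average, with a median difference of -0.30, and none passed. They summed to 808 to 1019 FPKM in treated and 689 to 818 FPKM in untreated SMA libraries, against 865 to 1281 FPKM in treated and 816 to 1186 FPKM in untreated control libraries. The part of any of these cells in the Igfbp5 levels was not tested. The genes most like Igfbp5 were Ntn1 (r = 0.971), which encodes the guidance cue netrin, P4ha3 (r = 0.971), which encodes a collagen prolyl hydroxylase subunit, and Rab32 (r = 0.970).

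Igfbp5 and Igfbp2 are neighbours on chromosome 1 of GRCm38. Igfbp2 runs on the plus strand (chr1:72824503-72852474) and Igfbp5 on the minus strand (chr1:72857932-72874884), with their 3′ ends facing each other 5457 bases apart. Irs1 lies on the same chromosome (chr1:82233101-82291416, minus strand). The promoters of these genes are shown because Igfbp5 and Irs1 ran together over the libraries whereas the neighbours Igfbp5 and Igfbp2 did not (r = 0.0241). The sequences are RefSeq's for GRCm38.p6, from 250 bases before to 50 bases after the start, 5′ to 3′ on the strand of the gene, and capitals mark matches to 5 motifs searched on both strands. For Igfbp2, which has 2 listed starts, 1 is shown. The regions are chr1:72874816-72875115 (minus strand) for Igfbp5, chr1:82291390-82291689 (minus strand) for Irs1 and chr1:72824230-72824529 (plus strand) for Igfbp2.
Igfbp5: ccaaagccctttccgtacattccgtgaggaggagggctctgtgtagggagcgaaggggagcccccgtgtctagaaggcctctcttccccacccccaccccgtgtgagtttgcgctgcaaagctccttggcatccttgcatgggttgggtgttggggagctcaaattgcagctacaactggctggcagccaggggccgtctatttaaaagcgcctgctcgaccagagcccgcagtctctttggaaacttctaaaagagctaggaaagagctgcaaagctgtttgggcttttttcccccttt
Irs1: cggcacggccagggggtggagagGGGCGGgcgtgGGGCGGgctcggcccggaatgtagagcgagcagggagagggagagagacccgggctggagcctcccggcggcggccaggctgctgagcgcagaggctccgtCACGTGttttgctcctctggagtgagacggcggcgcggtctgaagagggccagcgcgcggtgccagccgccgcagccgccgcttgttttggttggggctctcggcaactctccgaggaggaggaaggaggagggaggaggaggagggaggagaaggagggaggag
Igfbp2: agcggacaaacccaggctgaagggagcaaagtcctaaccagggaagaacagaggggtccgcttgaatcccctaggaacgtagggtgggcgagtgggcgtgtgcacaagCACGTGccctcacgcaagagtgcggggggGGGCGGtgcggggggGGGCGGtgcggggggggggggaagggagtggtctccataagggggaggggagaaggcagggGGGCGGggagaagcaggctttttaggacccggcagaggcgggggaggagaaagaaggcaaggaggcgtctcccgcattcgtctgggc
The motifs were the TATA box TATAAA, the GC box GGGCGG, the E-box CACGTG, which reads alike on both strands, the AP-1 site TGACTCA and the FOXO site TGTTTAC, and no marked matches overlap. They occur in 13.6%, 35.7%, 7.15%, 5.2% and 3.65% of all 32851 promoters of the same length, in this order. The Igfbp5 window holds none of them, the Irs1 window 2 GC boxes and 1 E-box, and the Igfbp2 window 3 GC boxes and 1 E-box. GC content was 56.3% for Igfbp5, 71.3% for Irs1 and 67% for Igfbp2, against a median of 52.7% over all promoters. A match describes letters and not a site in use.

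Igfbp2, whose product is a secreted IGF carrier abundant in the fetal brain, had lower means in SMA than in control libraries. Untreated, it was at 228, 373 and 322 FPKM in SMA libraries 1, 2 and 3, and at 465, 524 and 331 FPKM in control libraries. With R-Roscovitine it was at 238, 377 and 343 FPKM in SMA libraries and at 234, 479 and 383 FPKM in control libraries. The groups overlapped in both treatments. The difference was -0.47 ± 0.27 (interval -1.06 to 0.11; limma adjusted p = 0.429) without and -0.14 ± 0.27 (interval -0.73 to 0.44; limma adjusted p = 0.854) with treatment. Its levels ran most like Gm20746 (r = 0.964), Tmem184b (r = 0.9595) and Gm17087 (r = 0.956).

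Igfbp3 encodes the main IGF carrier of blood plasma, and Igfbp4 encodes a carrier that the protease pappalysin cleaves. Igfbp3 was at 110 to 172 FPKM in treated and 114 to 178 FPKM in untreated SMA libraries, against 99.4 to 158 FPKM in treated and 127 to 154 FPKM in untreated control libraries. Igfbp4 was at 3.63 to 5.28 FPKM in treated and 3.31 to 7.56 FPKM in untreated SMA libraries, against 4.17 to 6.35 FPKM in treated and 3.73 to 5.37 FPKM in untreated control libraries. Both genes overlapped between all groups, and their averaged genotype differences were 0.04 ± 0.14 (interval -0.27 to 0.35; limma adjusted p = 0.905) and 0.02 ± 0.16 (interval -0.33 to 0.38; limma adjusted p = 0.951). Pappa, the gene of pappalysin, averaged 1.48 ± 1.21 FPKM in treated and 1.53 ± 0.590 FPKM in untreated SMA libraries, against 2.78 ± 0.610 FPKM in treated and 2.73 ± 0.702 FPKM in untreated control libraries (mean ± SD, n = 3 each), and did not pass the threshold. Stc2, which encodes the pappalysin inhibitor stanniocalcin, averaged 3.61 ± 3.96 FPKM in treated and 2.17 ± 1.12 FPKM in untreated SMA libraries, against 5.65 ± 1.84 FPKM in treated and 5.17 ± 1.40 FPKM in untreated control libraries (mean ± SD, n = 3 each), and did not pass either. Igfbp3 ran most like Wnk1 (r = 0.948) and Gm5621 (r = 0.946), and Igfbp4 most like 5430405H02Rik (r = 0.850), Ranbp17 (r = 0.804) and Sema4c (r = 0.734).

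The summed level of the binding protein transcripts overlapped between genotypes, whereas the share of Igfbp2 in it did not overlap within a treatment. The 4 binding protein genes together were at 488 to 693 FPKM in treated and 470 to 695 FPKM in untreated SMA libraries, against 401 to 758 FPKM in treated and 583 to 791 FPKM in untreated control libraries. Igfbp2 made up 51.9% ± 4.80 of this sum in treated and 50.0% ± 3.25 in untreated SMA libraries, against 60.5% ± 2.54 in treated and 63.9% ± 6.26 in untreated control libraries (mean ± SD, n = 3 each). Its highest SMA value was 57.4% with and 53.7% without treatment, and its lowest control value 58.2% with and 56.8% without. The genotypes thus did not overlap within a treatment, but they did across treatments. Igfbp5 made up 24.7% ± 7.82 in treated and 26.0% ± 6.05 in untreated SMA libraries, against 15.6% ± 1.05 in treated and 14.3% ± 2.25 in untreated control libraries (mean ± SD, n = 3 each). The untreated groups did not overlap, and with treatment SMA library 2, at 15.8%, lay within the control range of 14.4% to 16.4%. Igfbp3 held 18.4% to 26.4% and Igfbp4 at most 1.09% in any library. These shares were formed after the levels were seen and were not tested. How often shares of other genes separate in the same way was not counted.

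**Figure D5:**
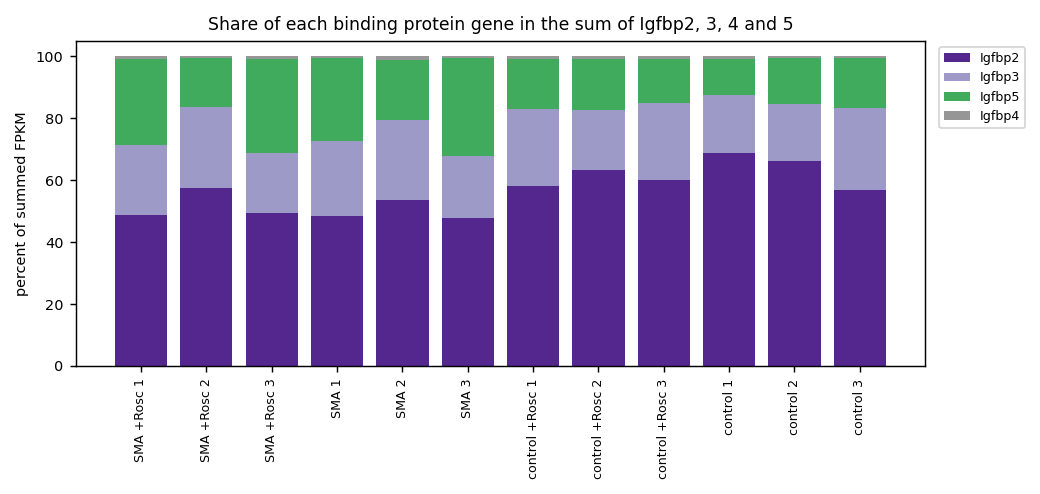
Share of Igfbp2, Igfbp3, Igfbp4 and Igfbp5 in the summed FPKM of the 4 genes, for each library. The Igfbp2 share is at most 57.4% in SMA libraries and at least 56.8% in control libraries.

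R-Roscovitine changed no IGF gene past the threshold. In SMA cultures 0% of the 15114 tested genes passed, and in control cultures 0% as well. At an unadjusted limma p under 0.05 these were 2.49% of all genes in SMA, 1.36% in control cultures and 1.67% for the average of both, with none of the 10 IGF genes among them. The differences, treated minus untreated, ran from -0.16 to 0.06 over the 10 genes in SMA cultures and from -0.28 to 0.24 in control cultures, with limma adjusted p of at least 0.999. All 10 genes overlapped between treated and untreated libraries in both genotypes. Over all tested genes, 6.15% lay wholly higher and 4.97% wholly lower with treatment in SMA cultures, and 1.52% and 3.07% in control cultures. The data do not show that levels were equal. For Igf2 the interval ran from -1.31 to 1.43 in SMA and from -1.13 to 1.61 in control cultures. For Insr, the tightest, it ran from -0.37 to 0.17 and from -0.27 to 0.27. These intervals come from the fit of group means, which does not use the pairs, so they include the spread between pairs. Within the 6 pairs, the differences ran from -0.18 to 0.38 for Igf2 and from -0.18 to 0.03 for Insr on the same scale.

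Within pairs, Igf1 was lower with R-Roscovitine in 5 of 6 pairs, including all 3 of control, and Igf2 was higher in 5 of 6. In FPKM, Insr was lower in all 3 SMA pairs and higher in 1 of 3 control pairs, or in 2 of 3 after scaling between libraries. Igfbp2 was higher in all 3 SMA pairs, at 238, 377 and 343 FPKM with and 228, 373 and 322 FPKM without treatment, and higher in 1 of 3 control pairs. The largest difference within a pair was that of Igfbp2 in control pair 1, at 234 FPKM with and 465 FPKM without treatment. No IGF gene differed between genotypes in its response, with differences of differences from -0.33 to 0.33 and limma adjusted p of 1, and 0% of all genes passed this test (2.05% at an unadjusted p under 0.05).

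Other genes were taken from 3 lists: further genes of the IGF system, the PI3K, AKT and mTOR pathway, and imprinted growth genes. Over these 3 lists, 1 gene passed the threshold for genotype on average. Of 29 other ligands, carriers, adaptors and proteases of binding proteins, 20 were tested, 7 with a higher and 13 with a lower value in SMA. The 1 of 20 that passed, near the 4.42% of all tested genes, was Igfbpl1, which encodes a secreted protein related to the IGF binding proteins. It was at 140, 97.7 and 130 FPKM in treated SMA libraries 1, 2 and 3 and at 58.8, 90.2 and 82.5 FPKM in treated control libraries. Untreated, it was at 137, 123 and 128 FPKM in SMA libraries and at 128, 75.1 and 80.1 FPKM in control libraries. The groups did not overlap with treatment, and without it control library 1 reached the SMA range. Igfbpl1 rose by 0.61 ± 0.15 on the log2 scale (interval 0.29 to 0.93; limma adjusted p = 0.0398), and its limma adjusted p was 0.173 with the mean of each pair as 1 sample. It passed in 4 of 18 fits that left out 1 library or pair, with a limma adjusted p of up to 0.23. The list's median difference was -0.09, against -0.01 over all tested genes.

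Of 37 genes of the PI3K, AKT and mTOR pathway, 35 were tested, 19 with a higher and 16 with a lower value in SMA, and none passed. The lowest limma adjusted p was 0.0905 for the kinase gene Akt1, which averaged 83.7 ± 13.7 FPKM in treated and 93.5 ± 16.7 FPKM in untreated SMA libraries, against 106 ± 5.98 FPKM in treated and 117 ± 8.23 FPKM in untreated control libraries (mean ± SD, n = 3 each). The phosphatase gene Phlpp1 averaged 11.6 ± 1.15 and 11.7 ± 1.13 FPKM in treated and untreated SMA libraries, and 9.74 ± 1.13 and 9.43 ± 1.19 FPKM in treated and untreated control libraries (mean ± SD, n = 3 each). The PI3 kinase subunit gene Pik3cb was at 14.9 ± 4.24 and 16.7 ± 4.02 FPKM in SMA, and at 21.2 ± 2.60 and 21.4 ± 4.02 FPKM in control libraries, in the same order. Besides Akt1, the list's most abundant genes were Eif4ebp1, a translation repressor under mTOR, at 196 ± 99.3 and 152 ± 42.6 FPKM in SMA and 201 ± 78.5 and 212 ± 45.7 FPKM in control libraries, and the kinase gene Gsk3a, at 58.9 ± 6.86 and 51.3 ± 5.26 FPKM in SMA and 60.1 ± 0.746 and 60.7 ± 11.5 FPKM in control libraries. The median difference over this list was 0.06. Of 20 imprinted growth genes, 17 were tested, 10 with a higher and 7 with a lower value in SMA, and none passed, with a median of 0.09. Plagl1, an imprinted zinc finger gene, averaged 122 ± 13.1 FPKM in treated and 130 ± 12.9 FPKM in untreated SMA libraries, against 101 ± 10.3 FPKM in treated and 106 ± 11.1 FPKM in untreated control libraries (mean ± SD, n = 3 each; limma adjusted p = 0.0637). The imprinted genes Gnas, Mest and Nnat were the most abundant of this list, at 627 to 781, 598 to 680 and 298 to 379 FPKM as group means. Sgce, an imprinted sarcoglycan gene, averaged 63.8 ± 7.28 and 68.7 ± 6.54 FPKM in SMA, and 51.9 ± 4.57 and 56.3 ± 6.95 FPKM in control libraries, treated and untreated in this order. Of the adaptors, Grb2 averaged 40.5 ± 1.02 and 42.4 ± 2.27 FPKM in SMA, and 44.4 ± 6.80 and 45.7 ± 2.85 FPKM in control libraries, in the same order. The abundant adaptor gene Grb10, which is also imprinted, averaged 198 ± 22.1 and 225 ± 14.8 FPKM in treated and untreated SMA libraries, and 174 ± 24.8 and 195 ± 13.1 FPKM in treated and untreated control libraries (mean ± SD, n = 3 each). In the treatment comparisons and their interaction, 0 genes of the 3 lists passed in the limma test.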

How the data were processed

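The authors deposited 1 table of FPKM per library, made with Cufflinks 2.2.1 after FastQC 0.10.1 and Trim Galore 0.4.0 on GRCm38, per the submitters' processing notes; libraries were made with a Lexogen mRNA kit, per the labels' protocols. Neither the aligner nor the strandedness is given in the sources used here. FPKM carry no counts, so no count model was used. Depth was read from the smallest common step of low FPKM in loci of 200 to 3000 bases, where 35.8% to 39.2% of the values were whole multiples within 0.01 reads, too few to recover counts. The 19 identifiers on several lines were summed, and no 2 libraries held the same values.

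FPKM were scaled by median-of-ratios factors, changed to log2(scaled FPKM + 1) and tested in limma 3.58.1 (R 4.3.3; a two-sided test by lmFit and eBayes with trend) in 1 fit of 4 group means to the 12 libraries; 132 small RNA genes were among the 15114 tested. The fit was also run on simulated data, for the averaged genotype comparison only. The simulated noise was independent between libraries and held no pairs, so it cannot show how pairing affects this comparison. Levels in the text are unscaled. Treated and untreated libraries of the same genotype and number deviated together (0.222 to 0.574 in 6 pairs), which is taken from the data and not from the labels; same-numbered libraries of the 2 genotypes under the same treatment correlated at -0.0535 to 0.28, and under different treatments at 0.0512 to 0.307 (-0.276 to 0.0594 for different numbers); since not every correlation exceeded 0.1, they were not taken as pairs. The members and lists were chosen with earlier results of these data known. Of the other lists, genes past the threshold, the 3 with the highest mean FPKM and the 3 with the lowest p were named, and for each IGF gene the 3 tested genes with the highest Pearson correlation, of which 1 is not reported here. RefSeq promoters were found for 9 of the 10 genes. Python 3.11.15 with pandas 2.3.3 served for tables, and matplotlib 3.10.9 for figures.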

Additional observations from a re-analysis of the deposited data

How the results depend on the processing

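No IGF gene passed the threshold in a treatment comparison or in the interaction under any setting run, and for genotype within either treatment none passed. For the averaged genotype comparison 0 passed, 1 (Igfbp5) did with the replicate number as a block (limma adjusted p = 0.031) and 1 (Igfbp5) with library weights (limma adjusted p = 0.0463), and 0 to 2 without 1 library or pair; these 2 were Igf2 and Igfbp5, in the fits without the treated SMA library 2 or without its pair. The count of all genes moved far more. For untreated genotype it was 1, with 2 at a pseudocount of 0.1, 301 with the replicate block, 354 with library weights and 1 to 141 without 1 library or pair. With R-Roscovitine it was 1, with 220 under the replicate block, 12 with library weights and 1 to 237 without 1 library or pair. Averaged, it was 668 (421 higher, 247 lower), with 1 without the filter on low values, 1743 (842 higher, 901 lower) under the replicate block, 1 with pair means as a block, 1953 with library weights and 1 to 1344 without 1 library or pair. For the interaction it was 0, with 1 without the filter and 0 to 1 without 1 library or pair. The cause was not tested. A block of pairs changed no call in the treatment comparisons.

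With pair means, the limma adjusted p of the averaged difference was 0.277 for Igf2 and 0.263 for Igfbp5. Over all settings that kept every library, the averaged difference ran from 1.11 to 1.89 for Igf2 and from 0.62 to 0.71 for Igfbp5; without 1 library or pair it ran from 0.79 to 1.96 and from 0.45 to 0.91. Igfbpl1 passed in 7 of 9 settings with all libraries and in 4 of 18 without 1 library or pair, with limma adjusted p up to 0.23 and differences of 0.52 to 0.72. Sign changes among the IGF genes, 13 of 610 values with all libraries and 146 of 1260 without 1 library or pair, were all of differences that did not pass. The pair left out and the removal of small RNA genes were chosen after seeing the data. The widest Cufflinks interval was that of Igf2 in untreated control library 1, at 55.0% to each side; the medians were 21.0% for Igfbp4 and 20.9% for Igf2.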

Other observations

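Among genes that bear on IGF binding protein cleavage and on IGF2 mRNA, 3 are described that were higher in SMA library 2 than in the other SMA libraries. With R-Roscovitine, the pappalysin inhibitor gene Stc2 was at 8.18 FPKM in SMA library 2 and at 1.18 and 1.48 FPKM in SMA libraries 1 and 3, against 3.68 to 7.32 FPKM in control libraries. Pappa was at 2.87 FPKM there and at 0.814 and 0.757 FPKM in SMA libraries 1 and 3, against 2.17 to 3.39 FPKM in control libraries. Igf2bp1, which encodes an IGF2 mRNA binding protein, was at 4.89 FPKM there and at 1.28 and 1.37 FPKM in SMA libraries 1 and 3, against 3.09 to 5.89 FPKM in control libraries. Untreated, the same 3 genes were also highest in SMA library 2 among SMA libraries, by less: Stc2 was at 3.42 FPKM there and at 1.85 and 1.24 FPKM in SMA libraries 1 and 3, Pappa at 2.19 FPKM and at 1.06 and 1.34 FPKM, and Igf2bp1 at 4.18 FPKM and at 2.03 and 2.79 FPKM. Other genes of these kinds were mixed. With treatment, Adamts1 was also highest in SMA library 2, at 33.4 FPKM against 19.4 and 26.8 FPKM in SMA libraries 1 and 3. Igf2bp2 was lowest there, at 7.55 FPKM against 8.20 and 9.68 FPKM, and Igf2bp3, Stc1 and Htra1 lay between SMA libraries 1 and 3. Olig2, an oligodendrocyte lineage gene, was at 2.98 FPKM in the treated SMA library 2 and at 14.3 and 8.09 FPKM in SMA libraries 1 and 3, against 1.09 to 2.66 FPKM in control libraries. These genes were chosen after their values were seen.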
